A study of Glycine max with 3 samples.

Results

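The fatty acid desaturase genes described here are 8 soybean (Glycine max) gene models, chosen by identifier out of the 66210 gene models listed for each library. They are FAD2-1A (Glyma10g42470) on chromosome 10, FAD2-1B (Glyma20g24530) on chromosome 20, FAD3A (Glyma14g37350) on chromosome 14, FAD3B (Glyma02g39230) on chromosome 2, FAD3C (Glyma18g06950) on chromosome 18, SACPD-A (Glyma07g32850) on chromosome 7, SACPD-B (Glyma02g15600) on chromosome 2 and SACPD-C (Glyma14g27990) on chromosome 14. The identifier carries the chromosome number. The names were assigned together with the identifiers, since the tables of read counts hold identifiers alone. A RefSeq gene table for the assembly Glycine_max_v4.0 lists 7 of the 8 names as a symbol or synonym, each on the chromosome that the identifier gives; SACPD-A is the one without an entry. None of the 66210 identifiers occurs in that table.

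RNA was sequenced from 3 seed compartments of the cultivar Asgrow A3237, the same line in every group, and the labels name no mutation or treatment. The embryo proper, from which the seedling forms, and the suspensor, the stalk that connects it to maternal tissue, were cut by laser from sections of globular-stage embryos (pods of 0.5 to 1.2 cm, sections of 6 µm). The seed coat parenchyma, a layer of the maternal seed coat, was cut from early maturation seeds of 6.0 to 7.0 mm, in sections of 8 µm and on another instrument. Tissue, stage, section thickness and instrument therefore cannot be told apart in any comparison with the seed coat. Each compartment had 1 library, and the totals were 11603055 assigned reads (embryo proper), 8365831 (suspensor) and 11894273 (seed coat parenchyma). No value has a replicate, no test between compartments was possible, and each interval below is a 95% interval for counting error alone. The labelled tissues were not checked against marker genes, because the files pair no identifier with a gene name.

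Plant fatty acid desaturases add double bonds to fatty acid chains one step at a time. In the plastid, the soluble stearoyl-acyl carrier protein desaturases (SACPD) put the first double bond into stearate and give oleate, the precursor of the unsaturated fatty acids in membranes as well as in oil. In the endoplasmic reticulum, FAD2 enzymes turn oleate into linoleate and FAD3 enzymes turn linoleate into linolenate. In soybean, the FAD2-1 genes are known for setting the oleate content of seed oil, the FAD3 genes its linolenate content, and SACPD-C its stearate content. The soybean genome is an ancient polyploid, and FAD2-1A with FAD2-1B, FAD3A with FAD3B, and SACPD-A with SACPD-B are duplicate pairs, called partners here. How reads that match both partners equally were counted is not given in the sources used here. The split of reads within a pair and the level of each partner are therefore uncertain.

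The data show 3 patterns. SACPD-A and SACPD-B were well covered in every compartment. FAD3A, FAD3C and SACPD-C had reads almost entirely in the seed coat parenchyma. FAD2-1A had no read anywhere and FAD2-1B had 18 in all. Levels are given as CPM, reads for each 1000000 reads of the library total after scaling by the TMM method, which sets the bulk of genes at a like level across libraries. They are not divided by transcript length, so a level is compared between libraries for the same gene and never between genes. For ratios, a count of 0 was set at a floor of 3 reads, which stood for 0.260 CPM in embryo proper, 0.431 CPM in suspensor and 0.209 CPM in seed coat parenchyma.

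**Figure D1:**
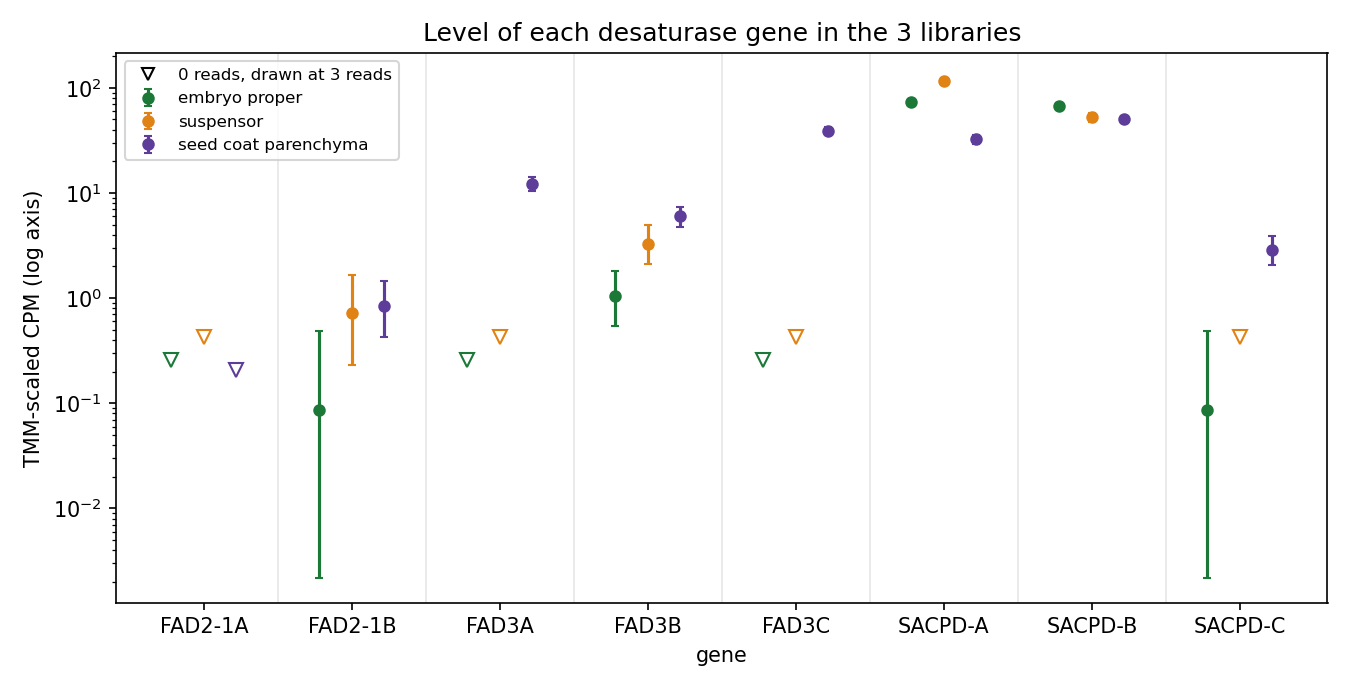
Level of each of the 8 genes (x axis) in TMM-scaled CPM (y axis, log scale) in the embryo proper, suspensor and seed coat parenchyma libraries, 1 library each; bars are 95% exact Poisson counting intervals, and open triangles mark 0 reads, drawn at the floor of 3 reads. SACPD-A and SACPD-B lie above 30 CPM in each library, while FAD3A and FAD3C have 0 reads in both embryo regions and lie at 12.3 and 38.6 CPM in seed coat parenchyma.

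The number of genes detected differed in the same way. With detection set at 1 CPM on the unscaled total and at least 3 reads, 3 of the 8 genes were detected in the embryo proper, against 36.8% of all gene models; these were FAD3B, SACPD-A and SACPD-B. The same 3 were detected in the suspensor, against 32.5% of all gene models. In the seed coat parenchyma 7 of the 8 were detected, against 42.1% of all gene models, and FAD2-1A was the exception. Of these detections, 2 lay at the threshold. FAD3B in the embryo proper and FAD2-1B in the seed coat parenchyma each had 12 reads, where 1 CPM stood for 11.6 and 11.9 reads.

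The SACPD genes open the pathway. SACPD-A had 846 reads in embryo proper, 806 in suspensor and 466 in seed coat parenchyma. On the scaled level it stood at 73.4 CPM (68.5 to 78.5) in embryo proper, 116 CPM (108 to 124) in suspensor and 32.4 CPM (29.5 to 35.5) in seed coat parenchyma. The 3 intervals did not overlap, so the suspensor library was the highest and the seed coat library the lowest beyond counting error. The ratio of scaled counts was 0.633 (0.574 to 0.698) for embryo proper over suspensor, 3.58 (3.19 to 4.02) for suspensor over seed coat and 2.26 (2.02 to 2.54) for embryo proper over seed coat. This order was the same under each of the 4 other scalings tried. In such tissue captures, a smaller share of cells that express a gene and less RNA per cell cannot be told apart.

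SACPD-B, its partner and an enzyme of the same step, was more even. It had 778 reads in embryo proper, 365 in suspensor and 728 in seed coat parenchyma, which came to 67.5 CPM (62.8 to 72.4), 52.5 CPM (47.2 to 58.1) and 50.6 CPM (47.0 to 54.4). The embryo proper was the highest library, at 1.29 (1.13 to 1.46) times the suspensor level and 1.33 (1.20 to 1.48) times the seed coat level. With unscaled totals its difference from the seed coat on the log2(CPM + 1) scale shrank to 0.13, against 0.41 with TMM. The suspensor and the seed coat did not differ beyond counting error, with a ratio of 1.04 (0.912 to 1.18), and their order turned with unscaled totals and with totals that left out the 50 most abundant gene models of each library.

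The split of reads between these partners compares them within 1 library and needs no scaling between libraries. SACPD-A took 52.1% (exact Clopper-Pearson interval 49.6 to 54.5%) of the 1624 reads of the pair in the embryo proper. Its share was 68.8% (66.1 to 71.5%) of 1171 reads in the suspensor and 39.0% (36.2 to 41.9%) of 1194 reads in the seed coat parenchyma. The intervals did not overlap between any of the libraries. The SACPD-A to SACPD-B read ratio of the embryo proper was 0.492 (0.419 to 0.578) times that of the suspensor. The suspensor's was 3.45 (2.90 to 4.10) times that of the seed coat, and the embryo proper's was 1.70 (1.46 to 1.98) times that of the seed coat. These comparisons also cancel any difference in transcript length. The part that reads matching both genes have in these values was not tested.

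**Figure D2:**
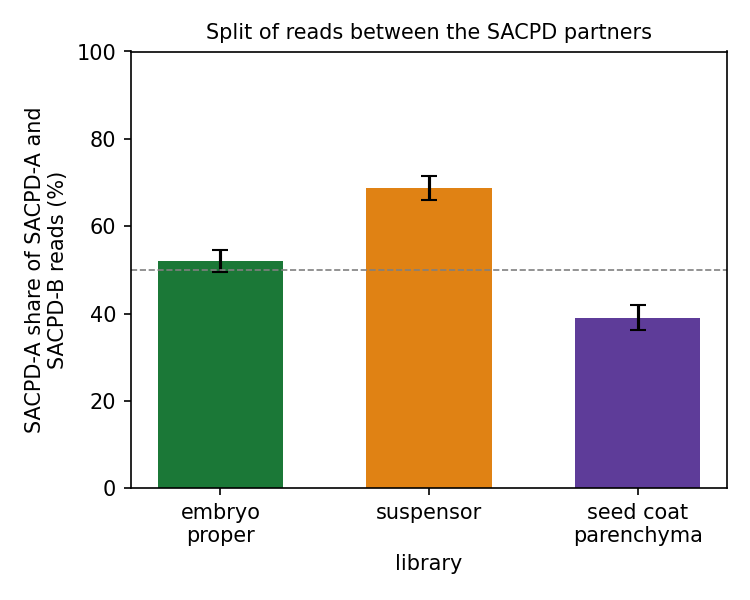
Share of the reads of SACPD-A and SACPD-B together that SACPD-A took (y axis, %), in the embryo proper, suspensor and seed coat parenchyma libraries (x axis); error bars are 95% exact Clopper-Pearson intervals, and the dashed line marks equal reads. The share is 52.1% in embryo proper, 68.8% in suspensor and 39.0% in seed coat parenchyma.

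SACPD-C, the copy tied to seed stearate, did not follow the other SACPD genes. It had 1 read in embryo proper, 0 in suspensor and 41 in seed coat parenchyma. Its seed coat level was 2.85 CPM (2.05 to 3.87), while the upper end of the interval was 0.483 CPM in embryo proper and 0.530 CPM in suspensor. The embryo proper level was 0.0304 (0.000752 to 0.179) times the seed coat level. With the suspensor set at 3 reads, SACPD-C was 6.61-fold lower there than in the seed coat. The lower end of the counting interval was 5.14-fold. The 1 read of the embryo proper was used as counted, while the 0 of the suspensor was raised to 3. The sizes of these 2 differences therefore cannot be set against each other.

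The FAD2-1 genes, which act on the oleate made by SACPD, were close to or below what these libraries could detect. FAD2-1A had 0 reads in embryo proper, 0 in suspensor and 0 in seed coat parenchyma, as did 41.1% of all gene models. The upper ends of the counting intervals for a count of 0 were 0.320, 0.530 and 0.256 CPM, in that order. They do not cover reads that match both partners, whose handling is not given. FAD2-1B had 1 read in embryo proper, 5 in suspensor and 12 in seed coat parenchyma. Its levels were 0.0867 CPM (0.00220 to 0.483), 0.719 CPM (0.233 to 1.68) and 0.834 CPM (0.431 to 1.46), in that order. The suspensor and seed coat values did not differ beyond counting error, with a ratio of 0.862 (0.238 to 2.63). The embryo proper interval overlapped both others. Its ratio to the suspensor was 0.121 (0.00255 to 1.08), an interval that held equality. The ratio to the seed coat was 0.104 (0.00243 to 0.703), which left out equality but rests on 1 read against 12. With 12 reads for the pair in the seed coat, the interval for the share of FAD2-1A reached up to 26.5%.

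The FAD3 genes, which carry out the last of the steps described here, held the largest differences. FAD3C had 0 reads in embryo proper, 0 in suspensor and 556 in seed coat parenchyma, where it stood at 38.6 CPM (35.5 to 42.0). With the empty library set at 3 reads, FAD3C was 148.6-fold lower in embryo proper than in seed coat. By the same rule it was 89.6-fold lower in suspensor than in seed coat. The lower ends of the counting intervals of these folds were 120-fold and 72.6-fold. Among the 4630 gene models with at least as many seed coat reads as FAD3C, 164 (3.54%), FAD3C included, had no read in either embryo region.

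FAD3A, another FAD3 gene, showed the same arrangement of reads at a lower count. It had 0 reads in embryo proper, 0 in suspensor and 177 in seed coat parenchyma, a seed coat level of 12.3 CPM (10.6 to 14.3). With the empty library set at 3 reads, FAD3A was 47.3-fold lower in embryo proper than in seed coat. By the same rule it was 28.5-fold lower in suspensor than in seed coat. The counting intervals reached down to 38.1-fold and 23.0-fold. Of the 12302 gene models with at least as many seed coat reads, 522 (4.24%), FAD3A included, had none in either embryo region.

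FAD3B, the partner of FAD3A, was the FAD3 gene with reads in all 3 compartments. It had 12 reads in embryo proper, 23 in suspensor and 86 in seed coat parenchyma. The levels were 1.04 CPM (0.538 to 1.82) in embryo proper, 3.31 CPM (2.10 to 4.96) in suspensor and 5.98 CPM (4.78 to 7.38) in seed coat parenchyma. The embryo proper was the lowest library beyond counting error, at 0.315 (0.143 to 0.659) times the suspensor level and 0.174 (0.0866 to 0.320) times the seed coat level. The suspensor level was 0.553 (0.333 to 0.885) times the seed coat level, although the intervals of these 2 levels overlapped.

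The FAD3 reads were thus made up differently by compartment. All 12 FAD3 reads of the embryo proper and all 23 of the suspensor were assigned to FAD3B, and the interval for the share of FAD3A or of FAD3C reached up to 26.5% in the embryo proper and 14.8% in the suspensor. In the seed coat parenchyma the 819 FAD3 reads were 21.6% FAD3A (18.8 to 24.6%), 10.5% FAD3B (8.49 to 12.8%) and 67.9% FAD3C (64.6 to 71.1%). Between FAD3A and its partner, FAD3A took 67.3% (61.3 to 72.9%) of the pair's reads in the seed coat. These are shares of reads and not of transcripts, since transcript lengths were not used.

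Summed by gene group, the SACPD genes held nearly all reads of the 8 genes in both embryo regions. Desaturase genes beyond these 8 were not counted. The shares are of reads, with no correction for transcript length. The 3 SACPD genes took 99.2% (98.6 to 99.6%) of the reads of all 8 genes in embryo proper, 97.7% (96.6 to 98.4%) in suspensor and 59.8% (57.6 to 61.9%) in seed coat parenchyma. The 3 FAD3 genes took 0.733% (0.379 to 1.28%), 1.92% (1.22 to 2.86%) and 39.6% (37.5 to 41.8%), in the same order. The summed level of the FAD3 genes was 1.04 CPM in embryo proper, 3.31 CPM in suspensor and 56.9 CPM in seed coat parenchyma. That of the SACPD genes was 141 CPM (134 to 148), 168 CPM (159 to 178) and 85.8 CPM (81.1 to 90.8). These sums rest on the TMM factors, and other scalings were not tried on them.

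The comparisons were also set against all gene models. Of the 8 genes, 3 had a mean over the libraries of at least 5 CPM, the minimum for comparison as log2(CPM + 1), a scale that makes differences of low genes look smaller. These were FAD3C, SACPD-A and SACPD-B. The means of the genes below that minimum were 4.10 CPM for FAD3A, 3.44 CPM for FAD3B, 0.979 CPM for SACPD-C, 0.546 CPM for FAD2-1B and 0 for FAD2-1A. Among the 19940 gene models over the minimum, the embryo proper stood above the suspensor by 4-fold or more for 15.2% and below it for 14.0%. None of the 8 genes was in either set. FAD3C had no read in either region, so only SACPD-A and SACPD-B could have been called. In the suspensor 14.9% of gene models were 4-fold higher than in the seed coat and 18.7% were lower, and FAD3C was the single desaturase gene, among the lower. In the embryo proper 13.7% were 4-fold higher than in the seed coat and 15.0% lower, and again FAD3C alone was among the lower. With 0 reads in both embryo regions, FAD3C passed the minimum through its seed coat level alone, so its place among the lower was fixed by the minimum and nothing is read from it. Of the other genes over the minimum, SACPD-A came nearest to the threshold of 2 on the log2 scale, with a difference of 1.81 for suspensor minus seed coat. Below the minimum SACPD-C was nearer, at -1.94, and FAD3A was past the threshold, at -3.73 in both comparisons with the seed coat.

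Because that minimum leaves out most of the genes, a second rule was added after the data were seen. It has no minimum and asks that the near end of the counting interval of the ratio be 4-fold or more, among gene models with at least 1 read in the libraries compared. By this rule FAD3A, FAD3C and SACPD-C were lower in the suspensor than in the seed coat, 3 of the 7 genes with a read against 17.1% of gene models. The same 3 were lower in the embryo proper than in the seed coat, against 15.1% of gene models. They entered almost entirely through their seed coat reads, and the rule was made with these values known, so the counts describe the genes and support nothing further. None of the 8 was higher by this rule in suspensor than in seed coat (10.8% of gene models) or in embryo proper than in seed coat (10.4%). Between the embryo proper and the suspensor none of the 8 was called, where 13.0% of gene models were higher and 11.3% were lower in the embryo proper. FAD2-1A, FAD3A and FAD3C had no read in either region and could not have been called.

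Over the 7 genes with a read, the median difference on the log2(CPM + 1) scale was -1.77 for embryo proper minus seed coat, beside -0.10 over the 39013 gene models with a read. For suspensor minus seed coat it was -0.70, beside -0.19. FAD3B was the median gene in both. FAD3A and FAD3C counted as genes with a read through the seed coat alone, and SACPD-C almost so. The direction of their differences was thus set by entry into the set, and nothing is read from these medians. For embryo proper minus suspensor the median of the 7 was 0, the value of FAD3A and FAD3C, which had no reads in either region.

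**Figure D3:**
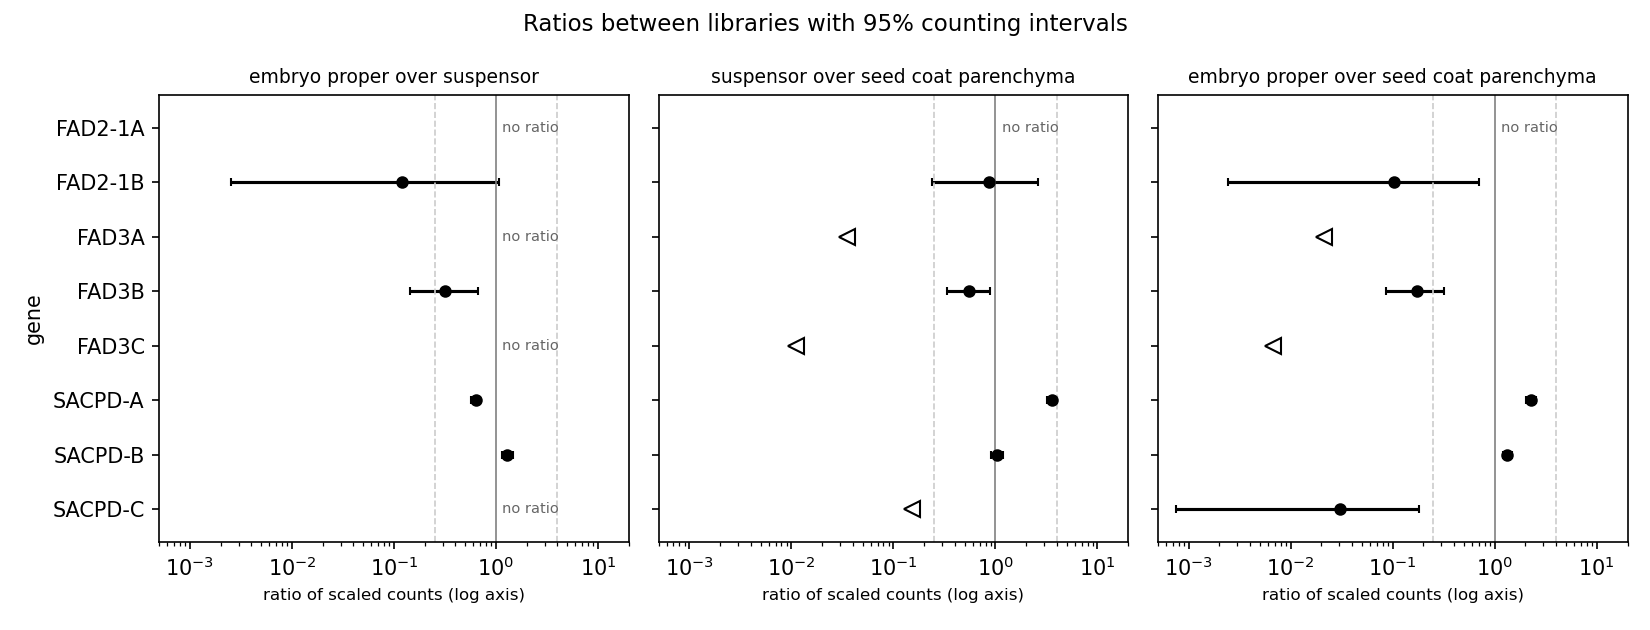
Ratio of scaled counts (x axis, log scale) of each gene (y axis). Panels show embryo proper over suspensor, suspensor over seed coat parenchyma and embryo proper over seed coat parenchyma. Bars are 95% counting intervals, and dashed lines mark 4-fold. Open triangles are genes with 0 reads in the first library, drawn with that library set at 3 reads. Their counting intervals are not drawn and reach right of the mark. FAD3A, FAD3C and SACPD-C lie left of 4-fold against the seed coat in both panels, and SACPD-A lies right of equality at 3.58 and 2.26.

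The likeness of patterns over the 3 libraries was measured as the distance between log2(CPM + 1) values after each gene's own mean was taken off, among the 19940 gene models over the minimum. The partners SACPD-A and SACPD-B were not each other's nearest genes. SACPD-B ranked 4972 of 19939 in likeness to SACPD-A, and SACPD-A ranked 7607 of 19939 in likeness to SACPD-B, at a distance of 1.25. The nearest to SACPD-A was Glyma12g35680, a gene model to which no name could be matched, with 57.3 CPM in embryo proper, 90.5 CPM in suspensor and 25.7 CPM in seed coat at a distance of 0.024. The nearest to FAD3C was Glyma11g13870, also without a name, with 0 reads in both embryo regions and 555 in the seed coat. FAD3C had 32 gene models within a distance of 0.1, SACPD-A had 26 and SACPD-B had 69. The FAD2-1 genes were too low to be ranked, as were FAD3A, FAD3B and SACPD-C.

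The gene models listed next to the 8 genes were described by the order of their identifiers, taking 5 on each side. Of the 80 neighbours, 60 had a read and 39 passed the mean of 5 CPM. Of all 66210 gene models, 39013 had a read and 19940 passed, a smaller share in each case. Among these 39, the embryo proper was 4-fold or more higher than the suspensor in 7 (17.9%) and lower in 4 (10.3%). The suspensor was higher than the seed coat in 6 (15.4%) and lower in 8 (20.5%), and the embryo proper was higher than the seed coat in 6 (15.4%) and lower in 7 (17.9%). Each share of 4-fold differences lay close to that over all gene models, the widest gap being 10.3% against 14.0% for the embryo proper below the suspensor. SACPD-C stood in the emptiest neighbourhood, with a read in 2 of its 10 neighbours, whereas all 10 neighbours of FAD2-1A, which itself had none, had reads.

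Next to FAD3A and FAD3B stood gene models that shared the seed coat pattern. The one listed just before FAD3A had 0 reads in embryo proper, 0 in suspensor and 124 in seed coat parenchyma. The one just before FAD3B had 0, 0 and 48 reads in the same order, although FAD3B itself had reads in both embryo regions. Both were singled out after their values were seen. No read in either embryo region with more than 3 in the seed coat was found in 4 of the 80 neighbours (5.0%) and in 5.97% of all gene models. The gene model just after FAD3C had 16.0 CPM in embryo proper, 12.4 CPM in suspensor and 174 CPM in seed coat parenchyma, so it was highest in the same library but was present in all. Whether neighbouring gene models overlap was not tested, since coordinates of the build behind the counts were not used here, and the use of strand in counting is not stated.

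**Figure D4:**
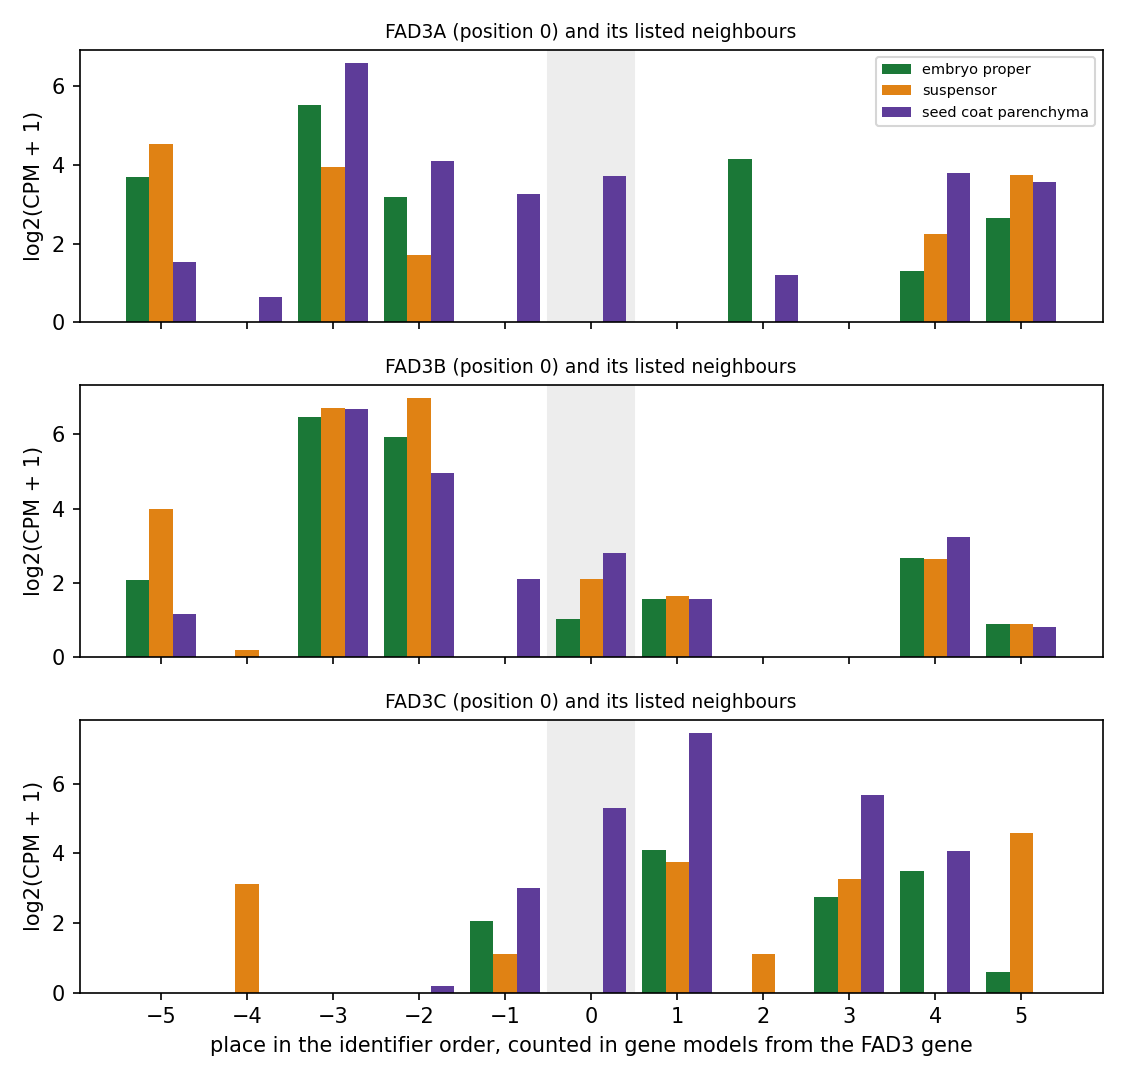
Level as log2(CPM + 1) (y axis) of FAD3A, FAD3B and FAD3C (position 0, shaded) and of the 5 gene models listed before and after each (x axis, place in the identifier order), in the embryo proper, suspensor and seed coat parenchyma libraries. The gene models just before FAD3A and FAD3B show a bar for the seed coat parenchyma alone, at 124 and 48 reads.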

How the data were processed

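The authors deposited 1 table of read counts per library, made by mapping reads and counting them for each gene model, per the file headers. The values are whole numbers with unequal totals and were taken as raw counts. Per the labels' protocols, 3 to 5 ng of total RNA was amplified as cDNA, put through 15 PCR cycles after adapter ligation and read as single ends of 76 nt. The submitters' processing notes name Bowtie. Not given in the sources used here are its version, the build and annotation, whether strand was used, and how reads with several hits were counted. Reads were counted without molecular identifiers, so intervals and floors cover counting error only.

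Counts were scaled with TMM factors from edgeR 4.0.16 in R 4.3.3, of 0.994 (embryo proper), 0.832 (suspensor) and 1.21 (seed coat parenchyma). Levels have exact Poisson intervals. The interval of a ratio is the exact Clopper-Pearson interval of how a gene's reads split between both libraries, turned into a ratio. Ratios of read ratios have exact conditional intervals. A gene with 0 reads was set at 3 reads per library, and no ratio is given where both libraries had 3 reads or fewer. No p-value was computed, since each compartment has 1 library. All 8 genes are described. Other gene models are named only where nearest in pattern to the member with the most reads in FAD2-1, FAD3 or SACPD. The members, lists and rules were chosen with earlier results of these data known. Other genes of the pathway were planned as a list, but no identifier could be matched to a name, so they are not analysed here, and no sequence is shown. The ratio and its interval were tried on simulated Poisson counts with unscaled totals, for gene models of at least 5 CPM. Such counts follow the sampling that the interval assumes. Scaling, the floor of 3 reads, low genes and pair shares were not tried in this way. Alternatives were upper-quartile scaling, size factors from DESeq2 1.42.0, totals with no scaling, totals that left out the 50 most abundant gene models of each library, other minimums, fold sizes and added constants, interval bounds, thinning to 8365831 reads and summed partners. Python 3.11.15, NumPy 2.4.6, pandas 2.3.3, SciPy 1.17.1 and matplotlib 3.10.9 were used.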

Additional observations from a re-analysis of the deposited data

How the results depend on the processing

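No paired analysis was possible because each compartment has 1 library, and no library could be left out. The number of genes 4-fold apart between embryo proper and suspensor was 0 under every setting tried. These used the log2 scale with an added constant or the interval bound. FAD2-1A, FAD3A and FAD3C had no read in either region and could not be called. Taken singly, only SACPD-A and SACPD-B could be called where a minimum mean applied. FAD3B, whose embryo proper level was 0.315 times the suspensor level, fell below that minimum. The plain ratio of FAD2-1B, which rests on 1 and 5 reads, was past 4-fold with an interval that reached equality. In each comparison with the seed coat the number was 1 (FAD3C) under every scaling, added constant, thinning, the interval bound and 8-fold. It became 2 with no minimum (FAD3A added), 2 at 2-fold (SACPD-A added), 2 with partners summed (FAD3A with FAD3B added) and 0 at a minimum of 20 CPM, where FAD3C was not compared. It was 3 with no minimum and the interval bound together, a setting chosen after seeing the data. Of 133 log2 ratios of single genes under other settings, 3 changed direction, all for suspensor minus seed coat, and 42 left their counting interval without a change of direction. The 42 do not measure stability. Where 1 library had 0 reads, an end of the interval was the main value itself, so any outward shift left it. For FAD3A, -3.739 after thinning counted against -3.734. Other added constants change the scale, yet were judged by the interval at 1 CPM. With 5 CPM added, suspensor minus seed coat was -3.13 for FAD3C (-5.31 with 1 CPM), -1.79 for FAD3A (-3.73) and -0.65 for SACPD-C (-1.94). FAD3B was at -1.13 and SACPD-A at 1.28 with unscaled totals (-0.70 and 1.81 with TMM). SACPD-B was at -0.48 with unscaled totals and -0.27 without the 50 most abundant gene models of each library, and FAD2-1B at 0.023 after thinning. Those totals shifted the median of all compared gene models to 0.22 and 0.09 (embryo proper minus suspensor), -0.47 and -0.28 (suspensor minus seed coat) and -0.20 and -0.13 (embryo proper minus seed coat). Upper-quartile scaling shifted the last to 0.14. All 9 pair shares stayed within their counting intervals after thinning, but most could not move. A share with 0 reads of the first partner stays at 0, and the suspensor, the shallowest library, was not thinned. Free to move were the SACPD-A share in embryo proper (52.1% to 52.3%) and seed coat (39.0% to 38.3%). The FAD3A share of its pair in the seed coat (67.3% to 67.9%) could also move. Depth limits FAD2-1A, FAD2-1B and SACPD-C, which rest on 0, 18 and 42 reads in all.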
